A study of Mus musculus with 23 samples.

Results

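Cacnb3, Ckb, Hebp2, Htr7, Pja1 and Ppfibp2 are 6 genes, of 47729 in the count table, that were picked for a high level in DC1a cells and a low level in DC1b or DC2 cells of untreated mice. They were thus chosen by their CPM in the untreated libraries, and the levels of those libraries are given here as a description with no test. Each symbol matched 1 gene identifier of the table. The members with the highest untreated mean in DC1a cells were 4 of the 6, because Pja1 was higher in DC2 cells and Ckb in DC3 cells, although Ckb was highest in DC1a cells as well (196 CPM against 183 CPM in DC3) once the libraries were scaled by edgeR's TMM factors. The rule of the choice rests on untreated levels, so the populations were tested in mice labelled TLI. Earlier results of these data were known when the genes were chosen, so those tests are not fully independent of the choice.

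All cells were sorted from spleens of wild type BALB/c mice, either untreated or TLI treated, an abbreviation left unexplained in the labels (total lymphoid irradiation is its usual sense). The sort on CD8 and CD172 gave 4 populations: DC1a (CD8hi CD172-), DC1b (CD8Int CD172+), DC2 (CD8lo CD172hi) and DC3 (CD8- CD172lo). There were 2 pools of untreated mice and 4 pools of TLI mice, which gave 8 untreated and 15 TLI libraries (n = 2 for each untreated population, n = 4 for TLI DC1a, DC1b and DC3, and n = 3 for TLI DC2, where pool 2 is not analysed here). Untreated pools and TLI pools 1 and 2 belong to batch 1 of the labels, and TLI pools 3 and 4 to batch 2. Each library is RNA of a pool of mice and of a small number of sorted cells, amplified before sequencing, and total counts lay between 19256447 and 36997890. Levels are CPM, the counts of a gene scaled to the library total, at which 3 counts, taken as the floor of detection, are worth 0.0811 to 0.156 CPM. Amplified reads are not independent molecules, so such floors cover counting error only.

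Dendritic cells of the spleen take up antigen and present it to T cells. The conventional type 1 lineage depends on Batf3 and Irf8, carries Xcr1, Clec9a and, in many cells, CD8, and is known for cross-presentation, whereas the type 2 lineage carries CD172 (the product of Sirpa) and depends on Irf4. Plasmacytoid dendritic cells, marked by Siglech and the transcription factor Tcf4, are known for interferon release. The 6 genes belong to no single pathway. Cacnb3 encodes a beta subunit of voltage-gated calcium channels, which brings the pore-forming subunit to the cell surface. Htr7 encodes a serotonin receptor that raises cyclic AMP. Ckb is the brain-type creatine kinase, which moves phosphate between ATP and creatine, and Hebp2 encodes a small heme-binding protein. Pja1 encodes a RING-type ubiquitin ligase, and Ppfibp2 encodes liprin-beta-2, a scaffold protein that binds other liprins.

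On assembly GRCm38 the genes lie on 6 chromosomes, Cacnb3 at chr15:98630840-98644529 on the plus strand, Ckb at chr12:111669361-111672338 on the minus strand, Hebp2 at chr10:18539498-18546076 on the minus strand, Htr7 at chr19:35958734-36057507 on the minus strand, Pja1 at chrX:99465734-99471273 on the minus strand and Ppfibp2 at chr7:107595207-107748583 on the plus strand. Ppfibp2 is the only one that overlaps other annotated genes (3 of them), and it shares 129 exon bases with Cyb5r2 on the opposite strand, so its level is uncertain to that extent. RefSeq's promoter table for GRCm38.p6 held windows for 5 of the 6 genes (Cacnb3, Ckb, Hebp2, Htr7 and Ppfibp2), 9 windows in all. The 250 bases upstream of the start are shown for the 3 genes whose window lies outside the gene model given above. They are the window of Hebp2 on the minus strand (chr10:18546077-18546326), that of Ckb on the minus strand (chr12:111672339-111672588) and the first of 4 windows of Ppfibp2 on the plus strand (chr7:107594801-107595050). Capitals mark matches, on either strand, to any of the motifs searched.
Hebp2: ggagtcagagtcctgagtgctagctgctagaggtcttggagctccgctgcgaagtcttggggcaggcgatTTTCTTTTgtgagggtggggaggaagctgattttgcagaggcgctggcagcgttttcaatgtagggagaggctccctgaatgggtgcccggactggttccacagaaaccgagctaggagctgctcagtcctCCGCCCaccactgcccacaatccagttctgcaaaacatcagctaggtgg
Ckb: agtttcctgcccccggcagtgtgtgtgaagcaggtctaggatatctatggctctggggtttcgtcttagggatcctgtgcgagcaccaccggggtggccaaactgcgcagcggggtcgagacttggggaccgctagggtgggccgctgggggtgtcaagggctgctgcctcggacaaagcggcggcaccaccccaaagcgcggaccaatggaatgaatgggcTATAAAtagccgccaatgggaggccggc
Ppfibp2: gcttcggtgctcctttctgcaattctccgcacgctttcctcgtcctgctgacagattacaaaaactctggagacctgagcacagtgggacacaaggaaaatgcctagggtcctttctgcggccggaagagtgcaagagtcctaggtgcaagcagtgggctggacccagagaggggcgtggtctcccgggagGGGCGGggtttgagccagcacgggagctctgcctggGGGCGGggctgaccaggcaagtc
The capitals in Hebp2 are a match to the core that IRF factors bind (AANNGAAA, read on the opposite strand) and to the Sp1 motif GGGCGG, those in Ckb are a TATA box (TATAAA), and those in Ppfibp2 are 2 Sp1 matches. The IRF core occurred in 1 of the 9 windows against 21.3% of all 32851 promoter windows of the same length, the Sp1 motif in 3 of 9 against 32.7%, and the TATA box in 2 of 9 against 12.4%. No window held the AP-1 motif TGANTCA (6.75% of all promoters), the ETS-IRF motif GGAANNGAA (6.99%), the cyclic AMP response element TGACGTCA (1.55%) or the NF-kB consensus (5%). The searches overlapped in no base of the 3 sequences shown. No motif was found in all of the windows.

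The gates could be checked against marker genes. Cd8a had a mean of 459 CPM in untreated DC1a and 521 CPM in TLI DC1a cells, against 0.513 and 0.637 CPM in DC2, while Sirpa had 0.222 and 0.347 CPM in DC1a against 224 and 118 CPM in DC2. The DC1b libraries were uneven. Cd8a averaged 273 CPM untreated and 181 CPM after TLI there, where single TLI libraries ran from 0.327 to 342 CPM. Sirpa averaged 52.3 and 74.6 CPM in DC1b cells, with TLI libraries from 5.10 to 146 CPM. In DC3 cells Cd8a (21.0 CPM untreated, 3.61 CPM after TLI) and Sirpa (0.664 and 3.23 CPM) were both low. The 10 cDC1 markers summed there to 2680 to 3146 CPM untreated and 2376 to 4167 CPM after TLI. These sums lay between those of DC1a (3525 to 3979 and 4239 to 7939 CPM) and DC1b (2111 to 2131 and 1001 to 2263 CPM). The DC2 sums were lowest (442 to 512 and 318 to 488 CPM). The 2 untreated DC1b libraries stood apart in the 8 plasmacytoid markers, which summed to 4204 and 4878 CPM there and to 60.6 to 470 CPM in the other 21 libraries. After TLI the DC1b libraries carried RNA of neutrophils, with 1406 to 21014 CPM over 8 markers against 6.41 to 11.1 CPM in TLI DC1a cells. The TLI DC2 libraries carried it too, with 110 to 2322 CPM against 1.63 to 2.34 CPM in untreated DC2 cells. TLI DC3 libraries had 3.93 to 73.9 CPM. Erythroid markers, mostly globin, summed to 19233 to 133479 CPM in the 7 TLI libraries of batch 1 and to 144 to 7146 CPM in the 8 of batch 2. A sorted library is a mixture, and fewer cells of a type and less RNA per cell cannot be told apart in it.

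**Figure D1:**
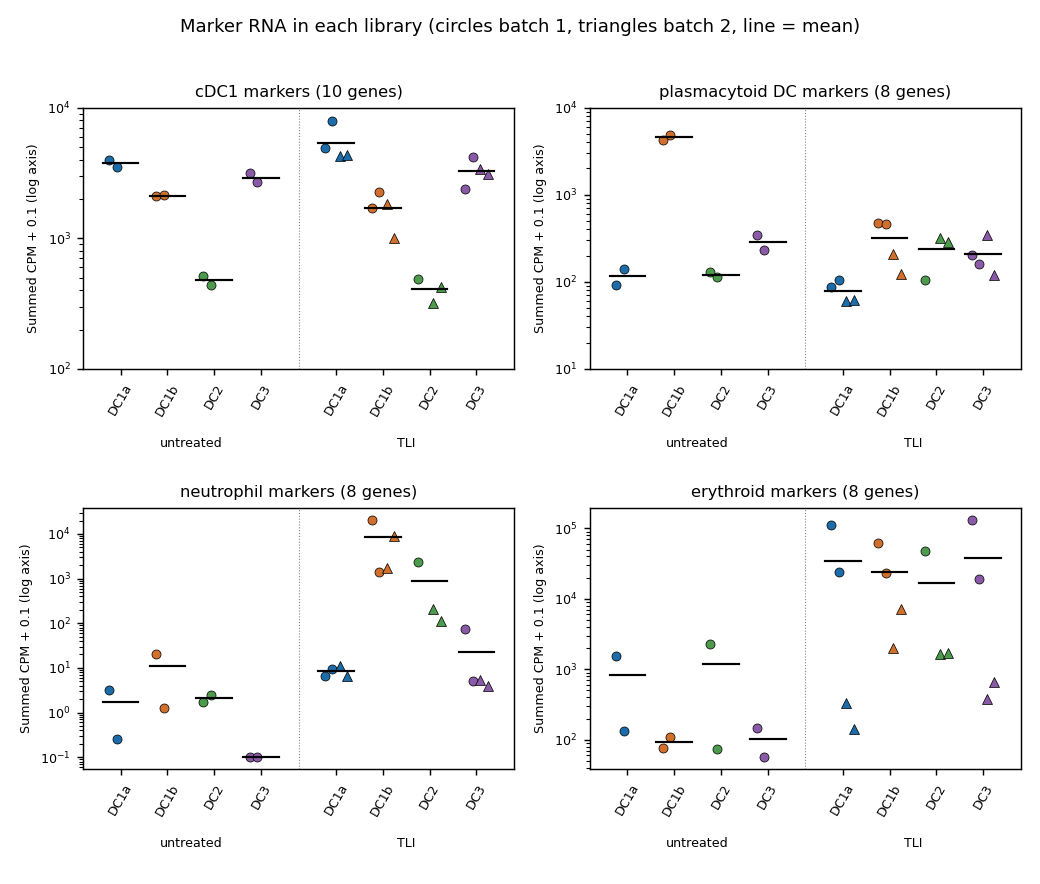
Summed CPM plus 0.1, on a log axis, of 4 marker lists in each of the 23 libraries, by population and treatment. Circles are batch 1, triangles are batch 2 and lines are group means. The untreated DC1b libraries are highest in plasmacytoid markers, the TLI DC1b libraries lie above the other TLI libraries of their pool in neutrophil markers, and the TLI libraries of batch 1 are highest in erythroid markers.

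After TLI none of the 6 genes was called lower in DC1b than in DC1a cells, whereas Hebp2 and Cacnb3 were far lower in DC2 cells. The DC3 mean lay between those of DC1a and DC2 for 4 of the 6 genes (5 with TMM-scaled CPM). In the 15 TLI libraries 2 of the 6 genes were called lower in DC2 than in DC1a cells at an adjusted p under 0.05, by edgeR's quasi-likelihood test with a term for batch and Benjamini-Hochberg adjustment over 16400 genes, where the same call was made for 1.00% of all genes tested. In DC1b against DC1a cells 0 of 6 were called lower by edgeR (0.128% of all genes) and 0 by DESeq2. At an unadjusted p under 0.05 by edgeR, in either direction, there were 2 of 6, beside 2104 of all 16400 genes. In DC3 against DC1a cells 0 of 6 were called lower by edgeR (0.293% of all genes). There DESeq2 called 1, Cacnb3, beside 953 genes in all. At an unadjusted p under 0.05 by edgeR, in either direction, there were 2 of 6, beside 1593 of all 16400 genes. On data simulated for the DC1b against DC1a comparison DESeq2 made more false than true calls and edgeR few false ones. There edgeR found 15 of 100 4-fold and 49 of 100 16-fold changes, and DESeq2 found 44 and 78. The simulated counts followed edgeR's own estimates of spread and held no batch effect, so they cannot rank the 2 tools on these data. The median fitted log2 fold change of the 6 genes was -1.19 for DC1b, -3.60 for DC2 and -1.10 for DC3, beside 0.01, -0.02 and 0.00 over all genes. These 3 comparisons share the DC1a libraries. A call missed at this sample size does not show that the levels were alike.

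**Figure D2:**
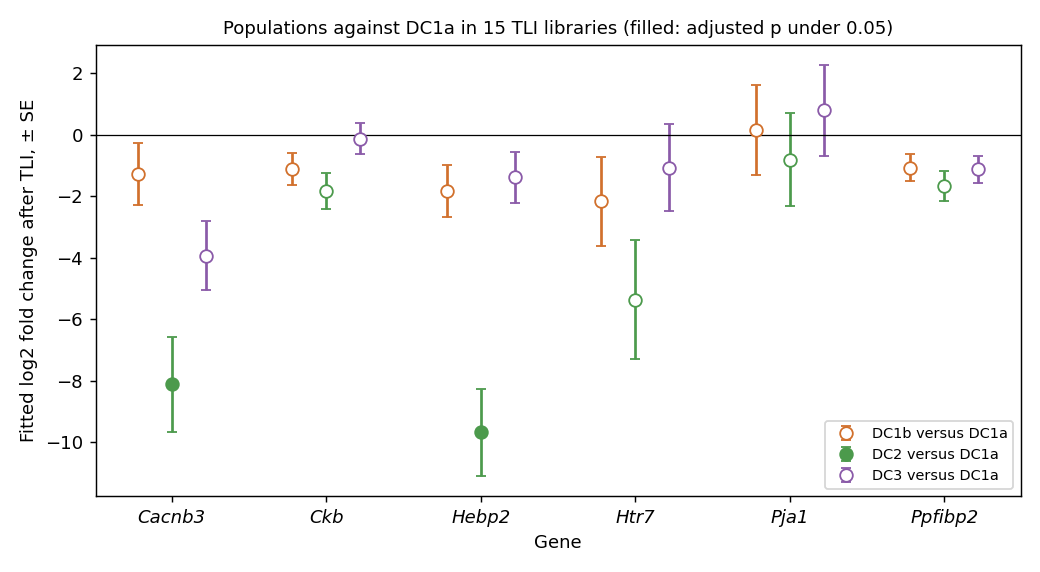
Fitted log2 fold change of DC1b, DC2 and DC3 against DC1a cells for each gene in the 15 TLI libraries. Bars are standard errors (SE) derived from the test, as the absolute change over the square root of its F statistic. Filled points are past an adjusted p of 0.05, which holds for Cacnb3 (-8.11) and Hebp2 (-9.67) in DC2 cells and for no other point.

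The separation of single libraries was counted too. All 4 TLI DC1a libraries lay above all TLI DC2 libraries for Cacnb3, Hebp2, Htr7 and Ppfibp2, that is for 4 of 6 genes (5.92% of all genes tested). They lay above all DC3 libraries for 2 of 6, Cacnb3 and Hebp2 (2.46% of all genes), and above all DC1b libraries for 1 of 6, Hebp2 (2.62% of all genes). Within pools, DC1a was the higher of the 2 populations in 4 of 4 pools against DC1b for Cacnb3, Ckb, Hebp2 and Ppfibp2, and in 3 of 4 for Htr7 and Pja1. Against DC3 it was higher in 4 of 4 for Cacnb3, Hebp2 and Ppfibp2, 3 of 4 for Htr7 and 2 of 4 for Ckb and Pja1. Against DC2 it was higher in 3 of 3 pools for each gene but Pja1 (1 of 3). The share of all genes with such pool counts was not computed, so nothing is read from them.

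**Figure D3:**
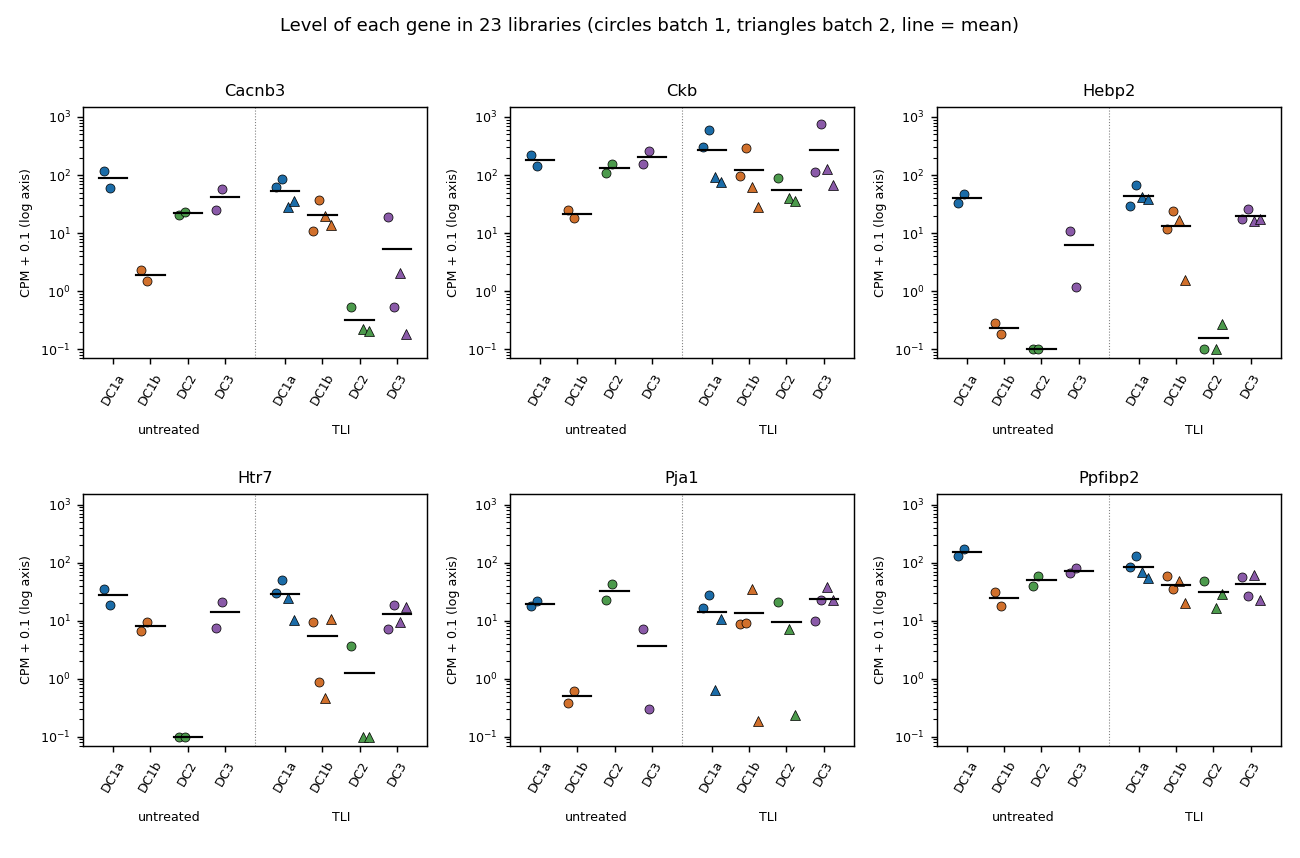
CPM plus 0.1, on a log axis, of the 6 genes in each of the 23 libraries, by population and treatment. Circles are batch 1, triangles are batch 2 and lines are group means. Hebp2 stays at or near 0 in all 5 DC2 libraries, and the 4 TLI DC1b libraries of Cacnb3 (10.9 to 37.2 CPM) lie above both untreated DC1b libraries (1.40 and 2.21 CPM).

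Hebp2 was at or near 0 in DC2 cells of both treatments. It had 33.2 and 47.3 CPM in untreated DC1a cells and 29.3, 66.9, 41.5 and 38.5 CPM in TLI pools 1 to 4. In DC2 cells no count was found in either untreated library or in TLI pools 1 and 3, and 5 counts (0.172 CPM) were found in TLI pool 4. The untreated DC1a mean was at least 290-fold higher than the DC2 mean would be with 3 counts, the floor, in both libraries. After TLI the fitted log2 fold change of DC2 against DC1a was -9.67 ± 1.41 (SE, adjusted p = 0.00190 by edgeR), and with counts of 0 in 2 of 3 DC2 libraries its size depends on how the fit treats a 0. The call held when any 1 of the 15 TLI libraries was left out (adjusted p from 0.000865 to 0.00933 by edgeR) and was lost within batch 1 (0.0629) or batch 2 (0.130) alone.

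In DC1b and DC3 cells the Hebp2 values of the 2 treatments did not overlap. The DC1b libraries had 0.188 and 0.0800 CPM untreated, which are 4 and 2 counts, and 11.7, 23.5, 16.8 and 1.43 CPM in TLI pools 1 to 4. In DC3 cells it had 11 and 1.1 CPM untreated and 17.6, 26.4, 16.4 and 17.1 CPM after TLI. All TLI libraries of these populations lay above the untreated ones, while those of DC1a cells overlapped. In DC1b cells 6.01% of all genes tested had such a separation, and the share in DC3 cells was not computed. The treatments were not tested, since the untreated values took part in the choice of the gene. Hebp2 was called higher in TLI DC3 than in TLI DC2 cells, with a log2 fold change of 8.28 ± 1.34 (SE, adjusted p = 0.00760 by edgeR), the only 1 of the 6 genes called there (1.21% of all genes in either direction). Over TLI pools 2 to 4 alone this call was lost (adjusted p = 0.109 by edgeR). It was also the only 1 of 6 called in DC2 against DC1b cells, at -7.85 ± 1.33 (SE, adjusted p = 0.0365; 0.165% of all genes), a call that was lost with the pool as a replicate block (adjusted p = 0.0897) and without any 1 of 13 of the 15 libraries (up to 0.127). Against DC1a cells its fitted change was -1.82 ± 0.85 in DC1b (SE, adjusted p = 0.399) and -1.39 ± 0.84 in DC3 (SE, adjusted p = 0.699), although no TLI library of these populations reached the lowest DC1a library.

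Cacnb3 had another order of populations after TLI than in untreated mice. In untreated mice it had 118 and 60.3 CPM in DC1a, 24.6 and 57.7 CPM in DC3, 20.6 and 23.4 CPM in DC2 and 2.21 and 1.40 CPM in DC1b cells, so that DC1b was lowest and no neighbouring populations overlapped. After TLI the DC1a libraries had 63.4, 84.2, 28.2 and 35.6 CPM and the DC1b libraries 10.9, 37.2, 19.4 and 13.7 CPM, 2 groups that overlapped. DC2 was now the lowest population, with 0.425, 0.121 and 0.103 CPM in pools 1, 3 and 4, which are 10, 4 and 3 counts. The TLI DC2 mean of 0.216 CPM was 0.00984 of the untreated DC2 mean of 22 CPM (0.00509 without TLI pool 1), and the TLI DC1b mean was 11.2 times the untreated DC1b mean. Neither difference was tested, since the untreated values took part in the choice of the gene.

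Among the TLI libraries Cacnb3 was called lower in DC2 than in DC1a cells, with a log2 fold change of -8.11 ± 1.55 (SE, adjusted p = 0.0130 by edgeR). Without any 1 of the 3 DC2 libraries the adjusted p was 0.0602 to 0.0611, while the fold change stayed between -8.26 and -7.93 over all 15 libraries left out. It was not called within batch 1 (adjusted p = 0.440 by edgeR) or batch 2 (0.0973) alone. DC3 cells were uneven, with 18.8 CPM in pool 1 and 0.443, 1.93 and 0.0854 CPM in pools 2 to 4. The fitted difference from DC1a was -3.93 ± 1.13 (SE, adjusted p = 0.208 by edgeR), and it passed the threshold by DESeq2 (adjusted p = 0.00791) and by edgeR without the DC3 library of pool 1 (-5.96, adjusted p = 0.0331). Cacnb3 is also known as a gene of mature dendritic cells. The 15 mature DC markers summed to 256 to 3345 CPM in TLI DC3, 776 to 1945 CPM in TLI DC2, 1301 to 2944 CPM in TLI DC1b and 887 to 6254 CPM in TLI DC1a libraries, and their part in the Cacnb3 levels was not tested.

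Htr7 had no count in 4 of the 5 DC2 libraries. The untreated DC2 libraries and TLI pools 3 and 4 had no count, and TLI pool 1 had 83 counts (3.53 CPM). DC1a cells had 35.6 and 18.8 CPM untreated, with a mean at least 196-fold higher than the DC2 mean would be with 3 counts in both libraries, and 29.3, 49.2, 24.2 and 10.2 CPM after TLI. DC3 cells came next with 7.37 and 21.0 CPM untreated and 7.11, 18.4, 9.31 and 16.9 CPM after TLI, and overlapped with DC1a in both treatments. DC1b cells had 6.54 and 9.47 CPM untreated and 9.40, 0.77, 0.36 and 10.5 CPM after TLI. The TLI difference of DC2 from DC1a, -5.36 ± 1.94 (SE, adjusted p = 0.171 by edgeR), missed the threshold and passed it by DESeq2 (adjusted p = 0.00704) and without the DC2 library of pool 1 (adjusted p = 0.0213 by edgeR). The differences from DC1a of -2.17 ± 1.46 in DC1b and -1.07 ± 1.42 in DC3 were within 2 standard errors.

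Ppfibp2 had the most even levels. It had 131 and 173 CPM in untreated DC1a, 65.1 and 80.0 CPM in DC3, 39.0 and 59.6 CPM in DC2 and 30.6 and 17.6 CPM in DC1b cells. After TLI it had 83.2, 130, 68.5 and 54.2 CPM in DC1a, 58.2, 34.8, 48.2 and 20.2 CPM in DC1b, 48.9, 16.5 and 28.6 CPM in DC2 and 56.8, 26.4, 61.6 and 22.9 CPM in DC3 cells. DC1a stayed the highest population in every pool, and all 4 TLI DC1a libraries lay below both untreated ones. The difference between treatments was not tested, since the untreated values took part in the choice of the gene. All untreated libraries are of batch 1, and the share of all genes with such a separation was not computed. The fitted log2 fold changes against TLI DC1a were -1.07 ± 0.43 for DC1b (SE, adjusted p = 0.319), -1.66 ± 0.48 for DC2 (SE, adjusted p = 0.0941) and -1.13 ± 0.43 for DC3 (SE, adjusted p = 0.395), all by edgeR. The DC2 difference passed the threshold by DESeq2 (adjusted p = 0.0311) and in a fit of all 23 libraries (0.0473 by edgeR). That fit takes in the untreated libraries, whose values took part in the choice of the gene. DC1b, DC2 and DC3 overlapped and were not separated from each other.

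Ckb was the most abundant of the 6 genes per kilobase of exon in all 8 groups, with mean levels from 7.45 CPM per kilobase in untreated DC1b to 93.2 CPM per kilobase in TLI DC3 cells. Untreated, it had 223 and 146 CPM in DC1a, 153 and 259 CPM in DC3, 110 and 152 CPM in DC2 and 25.3 and 17.8 CPM in DC1b cells, so that DC1b alone lay apart from the rest. After TLI it had 309, 591, 91.0 and 74.8 CPM in DC1a, 113, 772, 126 and 68.4 CPM in DC3, 96.4, 296, 61.3 and 28.6 CPM in DC1b and 89.3, 40.9 and 35.9 CPM in DC2 cells. All 4 populations overlapped. The library of TLI pool 2 was the highest in the 3 populations that had one, that of pool 4 was the lowest in each population, and the pools of batch 1, where erythroid RNA was high, lay above those of batch 2 in DC1a, DC1b and DC2 cells. The part of the batch, or of erythroid RNA, in the level of Ckb was not tested.

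The fitted difference of Ckb between TLI DC2 and DC1a cells was -1.84 ± 0.59 (SE, adjusted p = 0.124 by edgeR). With pools, in place of batches, as a replicate block the difference was -1.62 and passed the threshold (adjusted p = 0.0256 by edgeR). DC1b differed from DC1a by -1.11 ± 0.51 (SE, adjusted p = 0.386) and DC3 by -0.13 ± 0.50 (SE, adjusted p = 1.00). The sign of the DC3 difference turned in several alternatives, and DC1a was higher than DC3 in 2 of 4 pools.

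Pja1 did not have its highest level in DC1a cells in either treatment. Its untreated libraries had 22.9 and 41.9 CPM in DC2, 17.7 and 21.4 CPM in DC1a, 7.05 and 0.196 CPM in DC3 and 0.283 and 0.520 CPM in DC1b cells, so that it was lower than DC1a in DC1b and DC3 but not in DC2 cells. After TLI it had 16.4, 28.1, 0.541 and 10.4 CPM in DC1a, 8.54, 8.87, 35.7 and 0.0893 CPM in DC1b, 20.5, 6.99 and 0.138 CPM in DC2 and 9.85, 23, 38.2 and 22.4 CPM in DC3 cells. In 3 of the 4 TLI populations the lowest library was over 10 times below the highest, and all populations overlapped. No comparison of Pja1 came near the threshold. Against DC1a the differences were 0.16 ± 1.47 for DC1b (SE, adjusted p = 0.983), -0.81 ± 1.52 for DC2 (SE, adjusted p = 0.851) and 0.79 ± 1.47 for DC3 (SE, adjusted p = 0.992), all by edgeR, and each interval of 1 standard error held 0. The DC3 libraries lay above DC1a in both pools of batch 2 and below it in both pools of batch 1.

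The TLI populations other than DC1a were also compared with each other. In DC3 against DC1b cells 0 of 6 genes were called by edgeR (1.02% of all genes in either direction) and 0 by DESeq2. At an unadjusted p under 0.05 by edgeR there was 1 of 6, beside 1828 of all 16400 genes tested. That 1 gene of the 6 was Cacnb3, at -2.67 ± 1.09 (SE, adjusted p = 0.373). In DC2 against DC1b cells Cacnb3 was at -6.84 ± 1.47 (SE, adjusted p = 0.120 by edgeR and 8.14e-07 by DESeq2), and all 4 DC1b libraries lay above all 3 DC2 libraries. In DC3 against DC2 cells the 6 fitted differences lay between 0.53 and 8.28, each with DC3 higher, beside a median of 0.02 over all genes. Cacnb3 was at 4.18 there (adjusted p = 0.194 by edgeR and 0.00859 by DESeq2). The shares of all genes with such a separation or direction were not computed, so nothing is read from either.

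Cacnb3, Ckb and Hebp2, 3 of the 6 genes, were higher in each TLI than in each untreated DC1b library, as were 6.01% of all genes tested. The 6 genes were picked with low untreated DC1b values in view, so nothing is read from that count. The ratio of the TLI to the untreated DC1b mean was 11.2 for Cacnb3 (8.11 to 14.5 with any 1 library left out), 1.67 for Ppfibp2 (1.32 to 2.29) and 0.656 for Htr7 (0.438 to 0.859, the lowest without TLI pool 4). For Ckb it was 5.59, and 2.88 without TLI pool 2. For Pja1 it was 33.2, and 14.5 without TLI pool 3, while TLI pool 4 lay below both untreated libraries. No ratio is given for Hebp2, whose untreated DC1b libraries held 4 and 2 counts. Over the same libraries the plasmacytoid markers went from 4204 to 4878 CPM untreated to 124 to 470 CPM after TLI, among them Siglech from a mean of 1509 to 17.8 CPM and Tcf4 from 774 to 41.3 CPM. The neutrophil markers went from 1.16 to 20.2 CPM to 1406 to 21014 CPM. The part of either cell type in the DC1b levels of the 6 genes was not tested, and all untreated libraries are of batch 1. In DC1a cells the same ratios lay between 0.553 for Ppfibp2 and 1.44 for Ckb, the latter at 0.858 without TLI pool 2. In DC2 cells they were 0.00984 for Cacnb3, 0.285 for Pja1, 0.422 for Ckb and 0.635 for Ppfibp2. Without TLI pool 1 they were 0.00509 for Cacnb3 and 0.110 for Pja1. In DC3 cells they ran from 0.129 for Cacnb3 (0.0199 without TLI pool 1) to 6.44 for Pja1 (119 without untreated pool 1).

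Among the relatives and partners of the 6 genes, in lists that left the 6 genes out, 1 gene was called against DC1a cells after TLI by edgeR. Of all 16400 genes tested by edgeR, 2104 in DC1b, 2852 in DC2 and 1593 in DC3 cells had an unadjusted p under 0.05 against DC1a. DESeq2 called 1294, 1944 and 953 genes there. The share of all genes passing in at least 1 of the 3 comparisons was not computed. Nothing is read from the unadjusted or DESeq2 counts of the lists below. Of 21 other voltage-gated calcium channel genes and their regulators, 12 were tested and 0 were called against DC1a in any population by edgeR, with 2 at an unadjusted p under 0.05 in at least 1 of the 3 comparisons and 1 called by DESeq2. Their medians were -0.09 in DC1b, -2.35 in DC2 and -1.26 in DC3 on the log2 scale (0.01, -0.02 and 0.00 over all genes), and 11 of the 21 had a mean under 1 CPM in all 4 TLI populations. The other beta subunits were scarce, with TLI group means of 0 to 0.624 CPM for Cacnb1, 0.506 to 3.50 CPM for Cacnb2 and 0.0415 to 0.383 CPM for Cacnb4. The pore subunit gene Cacna1e averaged 26.3 CPM in TLI DC1a but 0.305 CPM in TLI DC2 libraries (log2 fold change -6.78, adjusted p = 0.0766 by edgeR). Of 21 other serotonin genes 3 were tested and 0 called by edgeR, with 0 at an unadjusted p under 0.05 and 1 called by DESeq2 (medians 0.65, 0.34 and -0.22 in DC1b, DC2 and DC3). No other serotonin receptor had a TLI group mean above 0.638 CPM, the level of Htr2b in DC3 cells, while in untreated mice Htr2b averaged 3.43 CPM in DC1a cells.

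Of 6 other creatine genes 4 were tested and 0 called by edgeR, with 1 at an unadjusted p under 0.05 and 1 called by DESeq2 (medians -1.47, -0.77 and -1.47 in the same order). Gatm, which makes the precursor of creatine, had means of 289 CPM in DC1a, 217 CPM in DC3, 136 CPM in DC1b and 78.4 CPM in DC2 cells after TLI, the same order as Ckb save for the first 2 (adjusted p = 0.0902 for DC2 by edgeR). The muscle creatine kinase gene Ckm had 2.28 to 4.45 CPM. Of 19 other heme genes 18 were tested, and 1, Bach1, a heme-regulated repressor of transcription, was called higher than in DC1a in DC1b (log2 fold change 3.21, adjusted p = 0.0490) and in DC2 cells (3.35, adjusted p = 0.0297), both by edgeR. Of all genes tested 1.34% were called higher in DC1b, 1.97% in DC2 and 0.341% in DC3 cells. The heme list had medians of 0.27, -0.31 and -0.72. Hebp1, the closest relative of Hebp2 by name, had 14.1 CPM in DC1a, 39.0 CPM in DC1b, 17.4 CPM in DC2 and 7.02 CPM in DC3 cells after TLI. Its TLI DC2 libraries ran from 1.55 to 48.1 CPM, and the fitted DC2 change from DC1a was -0.48 ± 1.17 (SE, adjusted p = 0.892 by edgeR). Of 8 genes of praja ligases and protein kinase A 8 were tested and 0 called by edgeR, with 3 at an unadjusted p under 0.05 and 2 called by DESeq2 (medians 0.17, 0.05 and -0.57), with Pja2 at 21.4 to 35.8 CPM. Of 14 liprins and partners 8 were tested and 0 called by edgeR, with 4 at an unadjusted p under 0.05 and 3 called by DESeq2 (medians -0.06, -0.27 and -0.27). Ppfibp1, which encodes liprin-beta-1, averaged 13.7 CPM in DC1a but 1.03 CPM in DC2 libraries (log2 fold change -4.00, adjusted p = 0.0711 by edgeR).

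The genes whose log2 CPM followed each of the 6 most closely over the 23 libraries were sought among 12921 genes, as a description across libraries that share pools, batches and marker RNA. The names depend on the measure, since 3 of the 18 genes were named again by Spearman's rho and 1 over the TLI libraries alone. Hebp2 was followed by Khdrbs3 (Pearson r = 0.933), Fzd1, a Wnt receptor gene (0.931), and Tlr3, a receptor for double-stranded RNA that is also among the cDC1 markers (0.921). Khdrbs3 had no count in DC2 cells of either treatment, and Tlr3 had 3.17 CPM untreated and 2.26 CPM after TLI there against 141 and 233 CPM in DC1a cells. Htr7 was followed by Ctla4 (0.879), Gcsam (0.878) and Rangrf (0.868), of which Gcsam had 306 and 430 CPM in DC1a against 0.145 and 4.28 CPM in DC2 cells. Ckb was followed by Plbd1 (0.910), Lpcat4 (0.884) and Sdf2l1 (0.880). Cacnb3 was followed by Ankrd33b (0.801), Tmem39a (0.798) and Armc8 (0.797), Ppfibp2 by Rgs10 (0.792), Rala, a small GTPase gene (0.790), and Pi4k2a (0.776), and Pja1 by Tfe3 (0.817), Ccne1, the cyclin E1 gene (0.763), and Stx6 (0.730). Among the 6 genes themselves r ran from -0.02 for Htr7 and Pja1 to 0.77 for Cacnb3 and Ppfibp2 over the 23 libraries. Hebp2 and Htr7 were at 0.68 over all libraries and at 0.68 in the TLI libraries alone, Pja1 reached at most 0.55, with Ckb. The choice of these genes as high in untreated DC1a cells takes part in such values.

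**Figure D4:**
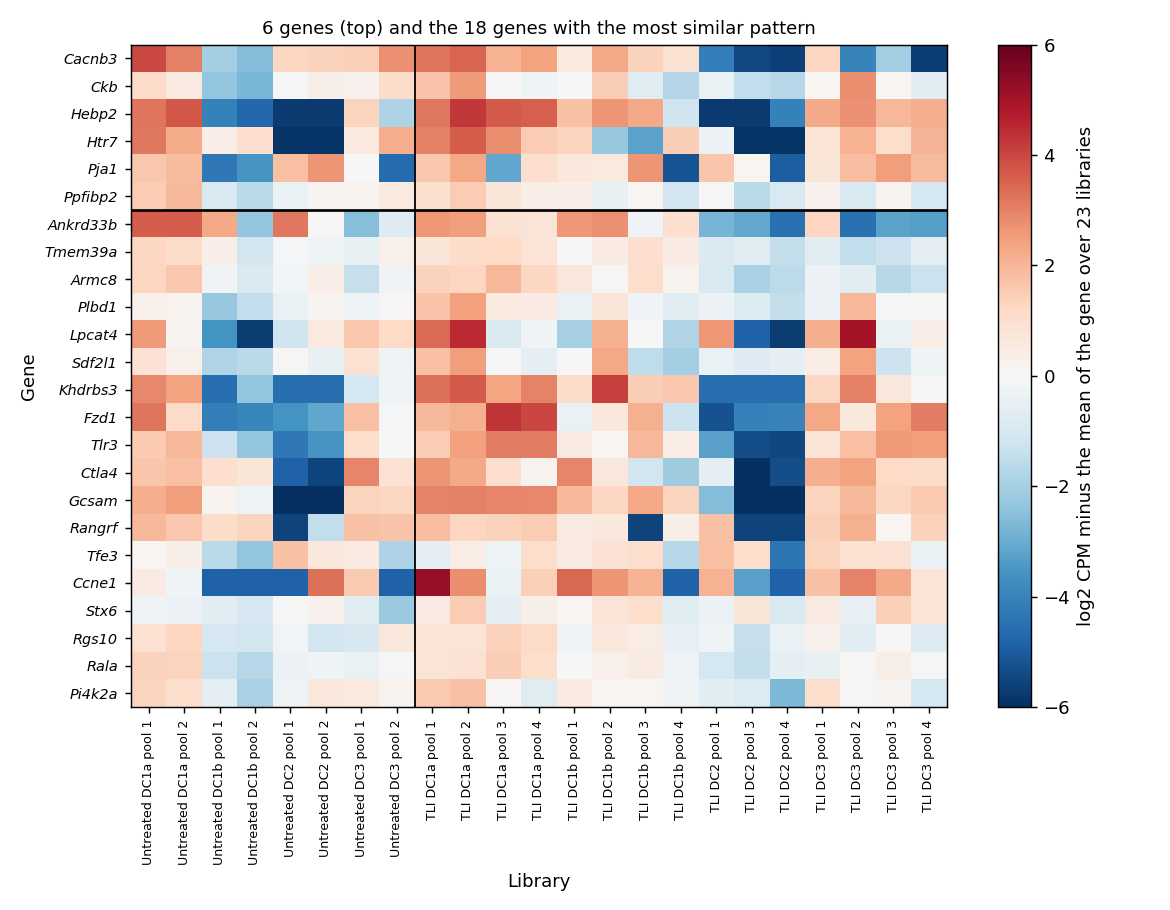
log2 CPM, less the mean of each gene over the 23 libraries, for the 6 genes (above the line) and the 18 genes most like them, 3 for each. Columns are libraries, with the untreated ones on the left. Hebp2 and Htr7 are low in most DC2 columns, although Htr7 is higher in TLI DC2 pool 1 than in TLI DC1b pools 2 and 3.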

How the data were processed

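RNA of sorted spleen dendritic cells was sequenced by the authors, who trimmed the reads (Trimmomatic), aligned them to GRCm38 (HISAT2) and used StringTie with its count script to make the deposited estimated counts, which are whole numbers per gene, unscaled for depth or length. The counts were used as deposited, and how amplification of small cell numbers affected them is unknown. Names and positions came from GENCODE M21, which matched 47310 of 47729 identifiers. The 15 TLI libraries were fitted with edgeR 4.0.16 in R 4.3.3 (TMM scaling, factors 0.890 to 1.17, default low-count filter, 16400 genes left, terms for population and batch), with a threshold of 0.05 on p-values adjusted by Benjamini-Hochberg over those genes. Each SE is the absolute fitted log2 fold change over the square root of the F statistic of edgeR's test. It restates that test and is not a separately estimated spread, least of all where libraries held counts of 0. DESeq2 1.42.0, other scaling, filters and batch terms, a fit of 23 libraries, each batch alone, TLI pools 2 to 4 alone, and leaving out each library were alternatives. The scripts were tested on simulated data, where DESeq2 did not hold its error rate. Those data followed edgeR's own estimates of spread and held no batch effect. No 2 libraries held the same counts (highest Pearson r between libraries 0.948).

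The 6 genes, the lists of relatives and the marker lists were chosen with earlier results of these data known. All 6 genes are named; other genes are named if they were the 3 most correlated with one of the 6 (log2 CPM, prior count 2, mean of at least 5 CPM in the highest group), the up to 4 most abundant called genes of a list, or relatives of one of the 6. Pool numbers of the labels pair the populations of 1 pool of mice. The deviations of libraries from their population mean correlated at a median of 0.207 within pools (21 pairs, lowest 0.0823), 0.170 between pools of a batch and -0.196 between batches. Nothing in the labels says that pools were processed separately within a batch. The main fit had no term for the pool, so its p-values measure the spread between libraries within a batch. It treats the libraries of 1 pool as independent.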

Additional observations from a re-analysis of the deposited data

Results flagged for a closer look

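In groups of 4 libraries a single value was marked where its gap to the nearest other value, over the range of the group, passed Dixon's critical value, which chance does in about 1 in 20 groups. This was found in 3 of 18 groups, all of them TLI DC3. Cacnb3 had 18.8 CPM in pool 1 against 0.0854 to 1.93 CPM in the other pools, Ckb had 772 CPM in pool 2 against 68.4 to 126 CPM, and Hebp2 had 26.4 CPM in pool 2 against 16.4 to 17.6 CPM. In the DC3 libraries of pools 1 and 2 the NK cell markers summed to 4286 and 1200 CPM, against 167 and 381 CPM in pools 3 and 4, and their part in these values was not tested.

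Pja1 was marked because DC3 lay below DC1a in both TLI pools of batch 1 (differences of -6.54 and -5.08 CPM) and above it in both pools of batch 2 (37.6 and 12 CPM). The difference between the batches was not tested.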

How the results depend on the processing

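Counts are given in the order DC1b, DC2 and DC3 against DC1a, then DC3 against DC1b, DC3 against DC2 and DC2 against DC1b, all after TLI, and edgeR called 240, 487, 104, 168, 198 and 27 genes and 0, 2, 0, 0, 1 and 1 of the 6 genes. DESeq2 called 1294, 1944, 953, 1135, 1282 and 761 genes, and of the 6 it called 0, 4, 1, 0, 2 and 2. Without a filter on low counts the genes were 361, 600, 182, 309, 340 and 81, with 2 of the 6 called in the last comparison. Without the batch term they were 147, 261, 41, 75, 119 and 21, and Pja1 was at -0.10 in DC1b. The fit of all 23 libraries takes in the untreated libraries, whose values took part in the choice of the 6 genes. It called 42 genes and 2 of the 6 in DC2 against DC1b cells. With the pool as a replicate block 0 of the 6 were called in that comparison. At an unadjusted p under 0.05 by edgeR there were 2 of the 6, beside 1420 of all genes. Pja1 was at -0.82 in DC1b against DC1a. Beside the calls of Ckb and Hebp2 given above, the block changed no other call of the 6 genes. Other scaling (RLE) and a minimum of 10 counts in 3 libraries changed none of the counts by over 1.5 times.

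Batch 1 alone (7 libraries) called 0, 16, 0, 0, 1 and 1 genes, with 1283, 1733, 833, 1243, 1462 and 1060 at an unadjusted p under 0.05. Batch 2 alone (8 libraries) called 113, 234, 23, 59, 68 and 11 genes. Within either batch 0 of the 6 genes were called in any comparison by edgeR, and fewer libraries were tested. There DC2 against DC1a cells had 2 and 5 of the 6 at an unadjusted p under 0.05, beside 1733 and 2335 of all genes. TLI pools 2 to 4 alone, an alternative chosen after seeing the data because pool 1 held most erythroid RNA, called 120, 216, 43, 83, 117 and 17 genes, and of the 6 called 0, 2, 0, 0, 0 and 0. In that fit 3 of the 6 were at an unadjusted p under 0.05 in each of the last 2 comparisons, beside 1976 and 1682 of all genes. The signs that turned were all of differences without a call. In batch 1 Pja1 was at -1.39 in DC1b and -0.60 in DC3 against DC1a, at -0.24 in DC3 against DC2 and at 1.03 in DC2 against DC1b cells, and Ppfibp2 was at -0.10 in DC3 against DC2. In batch 2 Ckb was at 0.00 in DC3 against DC1a and Ppfibp2 at 0.12 in DC3 against DC1b cells. Over pools 2 to 4 Ckb was at 0.01 in DC3 against DC1a. The cause was not tested.

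With 1 of the 15 libraries left out the genes called ranged over 125 to 250, 260 to 525, 51 to 138, 86 to 145, 134 to 220 and 12 to 63, and the 6 genes called over 0 to 0, 1 to 2, 0 to 1, 0 to 0, 1 to 2 and 0 to 1. The lowest counts of the first 3 came without DC1a pool 4 and, for the other two, DC1a pool 3. Counts moved by over 1.5 times without DC1a pools 1, 3 and 4 (first comparison), those or DC2 pool 3 (the second), DC1a or DC3 pools 3 and 4 (the third), DC3 pools 3 and 4 (the fourth), and DC2 pools 1, 3 and 4 (the sixth). Left-out libraries turned the sign of Pja1 in DC1b against DC1a (-1.83 to 0.55) and in DC2 against DC1b (-2.13 to 1.09), of Ckb in DC3 against DC1a (-0.75 to 0.16) and of Ppfibp2 in DC3 against DC1b (-0.47 to 0.21). Of the 18 most similar genes 16 were named with a prior count of 0.5, 3 by Spearman's rho and 1 over the TLI libraries alone. Of 12 orders of populations by mean CPM 9 were the same with TMM scaling, an alternative chosen after seeing the data. Depth limits DC2 values of Hebp2, Htr7 and Cacnb3, which rest on 0 to 83 counts after TLI.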

Other observations

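Lineage markers were called in each population compared with DC1a cells after TLI. Of all genes tested by edgeR 0.128% were called lower than in DC1a in DC1b, 1.00% in DC2 and 0.293% in DC3 cells. Called higher were 1.34%, 1.97% and 0.341% in the same order. These shares stand beside each count of called markers below. Of 10 cDC1 markers 9 were called lower in DC2 than in DC1a cells by edgeR, 3 in DC1b (Irf8, Naaa and Clec9a) and 1 in DC3 cells (Cd8a). Cd8a, called in DC2 and DC3, and Sirpa, called in DC2, encode markers of the sort. Their calls thus follow from the gates. The most abundant of them were Naaa, a lipid hydrolase gene (log2 fold change -4.92 in DC2, adjusted p = 0.000188), Irf8 (-4.19, adjusted p = 0.000429), Xcr1 (-5.70, adjusted p = 0.000524) and Clec9a (-4.06, adjusted p = 4.45e-05). Irf8 was at 0.07 ± 0.38 in DC3 against DC1a cells (SE, adjusted p = 1.00). Of 10 cDC2 markers 4 were called higher in DC2, and 2 of them, Cd209a and Klf4, in DC1b and DC3 as well. Cd209a was at 6.05 in DC2, 3.48 in DC1b and 3.06 in DC3 cells.

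Of 15 mature DC markers 2, the chemokine receptor gene Ccr7 (-5.09, adjusted p = 0.0270 by edgeR) and Marcksl1 (-3.18, adjusted p = 0.00299), were called lower in DC3 than in DC1a cells, and 0 in DC1b or DC2 cells. Of 8 neutrophil markers 5 were called higher in DC1b, among them S100a8 and S100a9, 2 in DC2 and 0 in DC3 cells. Of 9 macrophage and monocyte markers tested, 2 were called higher in DC1b, 3 in DC2 and 2 in DC3 cells, with Ly6c2 higher in all 3, and Vcam1 was called lower in DC3. Of 8 plasmacytoid markers 1 was called higher in each of the 3 populations, Siglech in DC1b and DC3 and Runx2 in DC2 cells, and Ccr9 was called lower in DC2 cells. Of 4 B cell markers tested Cd79b was called higher in DC1b and DC2 cells. None of 8 T cell, 7 NK cell and 8 erythroid markers tested was called against DC1a cells by edgeR, with 3, 4 and 1 of them at an unadjusted p under 0.05 in at least 1 of the 3 comparisons and 2, 3 and 0 called by DESeq2. The share of all genes for such counts over 3 comparisons was not computed.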
